A study of Mus musculus with 6 samples.

Results

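The insulin-like growth factor (IGF) family was followed in mouse bone marrow through 10 genes: the ligands Igf1 and Igf2, the receptors Igf1r and Igf2r, and the binding proteins Igfbp2, Igfbp3, Igfbp4, Igfbp5, Igfbp6 and Igfbp7. The genes were chosen by symbol, and each had exactly 1 row carrying its symbol alone among the 19938 genes measured on Affymetrix Mouse Gene 1.0 ST arrays. In Scf-GFP+ cells 6 of the 10 were higher than in whole bone marrow, none was lower and 4 did not pass the test. The arrays carried RNA from 2 sorted populations of young adult mice on a C57BL/6 background, 3 arrays each. Scf-GFP+ cells came from mice heterozygous for a knock-in of green fluorescent protein (GFP) at the stem cell factor gene Kitl, and were sorted in 2 passes. The comparison population was unselected marrow of wild-type mice, with no second pass named. Each sample held 5000 cells. Genotype, cell population and sorting therefore changed together and cannot be told apart, and the knock-in marks every marrow cell that transcribes Kitl rather than 1 cell type. The labels speak of independent aliquots and name no animals. The spread behind each p-value may therefore be technical in part. It is not wholly so among the Scf-GFP+ arrays, which differed in sex-linked RNA, as given below.

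IGF1 and IGF2 are secreted peptides that drive growth and survival through the tyrosine kinase receptor encoded by Igf1r. The protein of Igf2r instead takes IGF2 up for breakdown and carries enzymes tagged with mannose 6-phosphate to lysosomes. Binding proteins hold most IGF outside cells, in blood or in matrix, and proteases that cut them release it. In bone, IGFs stored in the matrix act on cells of the osteoblast lineage, and growth hormone is a main inducer of Igf1 in many tissues.

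Binding proteins held the largest differences of the family, and their upstream sequences are shown for the members that contrast most. Igfbp2 and Igfbp5 are neighbours on mouse chromosome 1, on opposite strands and with no annotated gene between them, yet 1 of them differed strongly between the populations and the other did not. Igfbp7 and Igfbp4 had the next largest differences among the binding proteins. Each line gives the 120 bases before an annotated RefSeq transcription start, 5′ to 3′ on the gene's strand in build GRCm38.p6. The stretches are chr1:72874866-72874985, minus strand for Igfbp5, chr1:72824360-72824479, plus strand for the first of the 2 annotated starts of Igfbp2, chr5:77408046-77408165, minus strand for Igfbp7 and chr11:99041124-99041243, plus strand for Igfbp4. Capitals mark matches to any of the 6 short motifs searched.
Igfbp5: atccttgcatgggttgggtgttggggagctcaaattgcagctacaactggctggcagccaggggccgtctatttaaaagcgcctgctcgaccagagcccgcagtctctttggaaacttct
Igfbp2: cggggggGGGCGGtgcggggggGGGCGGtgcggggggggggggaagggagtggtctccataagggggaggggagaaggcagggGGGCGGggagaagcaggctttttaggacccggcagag
Igfbp7: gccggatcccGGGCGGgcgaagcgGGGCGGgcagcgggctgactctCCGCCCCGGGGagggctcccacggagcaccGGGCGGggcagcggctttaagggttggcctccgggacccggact
Igfbp4: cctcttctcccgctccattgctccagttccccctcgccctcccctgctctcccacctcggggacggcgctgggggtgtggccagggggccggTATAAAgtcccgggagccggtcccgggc

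The motifs were searched on both strands and were chosen after the sequences had been seen. They were TATAAA for the basal promoter element, GGGCGG for Sp factors, CCCNNGGG for the core that Ebf factors bind, TGTTTAC for forkhead factors, TGTGGT for Runx factors and TTCNNNGAA for Stat factors. All 10 members matched the RefSeq promoter table, with 14 windows of 300 bases, from 250 before to 50 after a start. The upstream stretch of Igfbp4 held TATAAA 28 bases before the start, a motif found in 13.6% of all 32851 windows. Among members it also lay in the window of Igfbp6, which was not called. That of Igfbp7 held GGGCGG 4 times and CCCNNGGG once, the latter overlapping a GGGCGG match on the other strand. CCCNNGGG lay in the windows of Igfbp7, Igf1 and Igf2r, which is 3 of the 14 windows against 13.7% of all windows. GGGCGG lay in 6 of the 14 windows against 35.7% of all, and 4 of the 6 belonged to members that did not pass the test, namely Igfbp2, Igf1r and Igf2, the last with 2 windows. TGTGGT lay in 1 of the 14 windows, that of Igfbp3, against 16.8% of all. TGTTTAC and TTCNNNGAA were in none of the 14 windows, against 3.65% and 8.3% of all. In the window of Igfbp5 none of the 6 motifs was found. Its GC content was 56.3%, against 73.3% for Igfbp7 and a median of 52.7% over all windows.

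A few facts of the arrays bear on the values. All 8 perivascular stromal markers examined, Kitl among them, were higher in Scf-GFP+ cells, as were 5 of 7 osteoblast markers, with 1 lower (Ifitm5), and 4 of 6 adipocyte markers, while all 6 measured erythroid and all 5 measured B cell markers were lower. Kitl itself measured 10.16 to 10.83 on the log2 scale in Scf-GFP+ cells and 4.56 to 5.05 in whole marrow, which checks the labels and is no finding because the cells were sorted on this gene. All 10 neutrophil markers were higher in Scf-GFP+ replicate 1 than in replicates 2 and 3. Their summed level, given as log2 of the summed linear values, was 14.02 in replicate 1 and 9.68 and 9.81 in the other two, against 15.54 to 15.60 in whole marrow. Endothelial markers differed little as a sum, at 9.67 to 10.37 in Scf-GFP+ cells and 10.18 to 10.25 in whole marrow. This sum covers calls in both directions. Of the 10 markers 2 were higher, Emcn by 2.195 and Cdh5 by 1.401, and 1 was lower, Pecam1 (-1.901). Smooth muscle and mural cell markers summed to 9.93 to 10.93 against 9.07 to 9.16, with 2 of 7 called higher, among them Rgs5. Schwann cell markers summed to 10.17 to 11.14 against 8.40 to 8.70, with 1 of 3 measured called higher, S100b. Scf-GFP+ replicate 3 was the lowest Scf-GFP+ array for 9 of 10 endothelial, 6 of 7 smooth muscle and mural and 5 of 6 adipocyte markers. Macrophage markers summed to 9.21 to 9.33 in Scf-GFP+ cells and 10.93 to 11.16 in whole marrow. The arrays also differed in sex-linked RNA. Xist, an RNA of female cells, was at 11.50 on the first and 11.81 on the second Scf-GFP+ array and at 4.99 to 5.10 on the other 4 arrays. The Y-linked gene Eif2s3y went the opposite way, at 4.41 on the first and 3.72 on the second Scf-GFP+ array. On the other 4 arrays it was at 7.335 to 8.235. The log2 values come with no call of presence. A gene with a low value may still be expressed, and levels of different genes are not compared. Whole marrow mixes many cell types, and fewer cells of a type cannot be told apart from less RNA per cell.

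**Figure D1:**
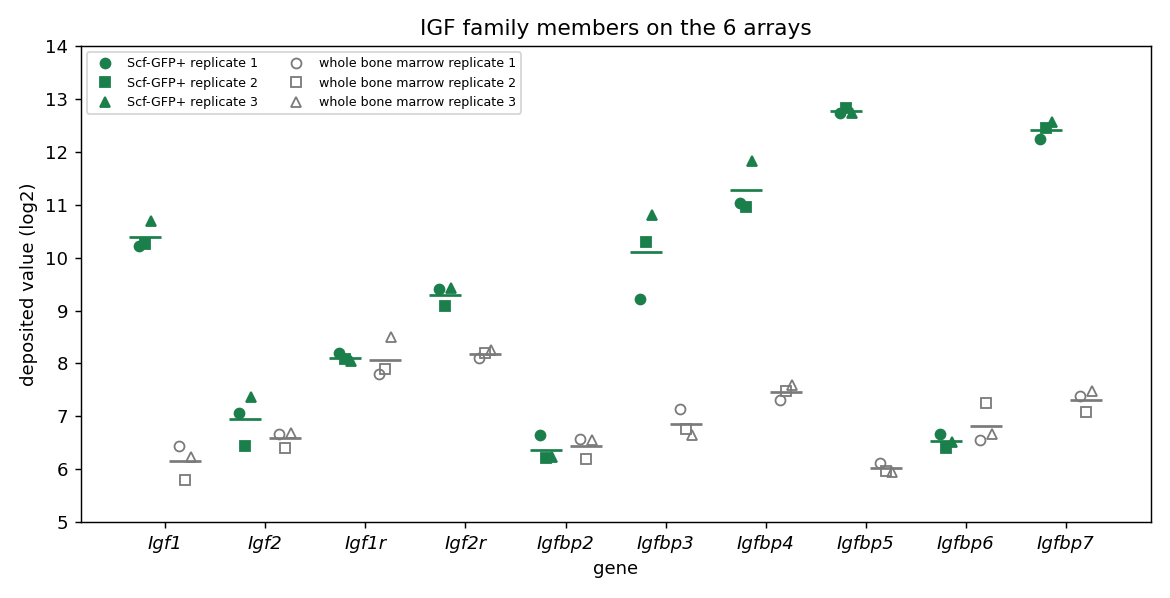
Log2 value of each of the 10 genes on each array, with filled green symbols for the 3 Scf-GFP+ arrays, open grey symbols for the 3 whole bone marrow arrays and a line at each group's mean. For Igf1, Igf2r, Igfbp3, Igfbp4, Igfbp5 and Igfbp7 every green symbol lies above every grey one, and the groups overlap for the other 4.

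A gene was called when its limma p-value, adjusted by Benjamini-Hochberg over all 19938 genes, was below 0.05 and its difference at least 2-fold. Over all genes, 16.9% were called, 9.01% as higher and 7.89% as lower in Scf-GFP+ cells. Of the 10 members, 6 were called higher and 0 lower. At an unadjusted limma p below 0.05 the member counts were also 6 and 0. The share of all genes under that looser rule was not counted, and the shares above do not apply to it. The groups did not overlap in 6 of 10 members, all with the Scf-GFP+ arrays on the higher side. Over all genes 45.4% did not overlap, counting both directions. The median difference of the members was 2.19 on the log2 scale, beside -0.07 for all genes.

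Of the ligands, Igf1 was higher in Scf-GFP+ cells and Igf2 was not called. Igf1 had values of 10.22, 10.27 and 10.68 on Scf-GFP+ arrays 1, 2 and 3 and of 6.44, 5.80 and 6.23 in whole marrow. The groups lay 3.77 apart at their closest. The difference was 4.23 ± 0.21 (log2, limma standard error, SE, n = 3 arrays per group), or 18.8-fold, with a limma adjusted p of 2.13e-05. Igf2, the imprinted fetal growth factor, measured 7.06, 6.45 and 7.37 in Scf-GFP+ cells and 6.66, 6.41 and 6.68 in whole marrow. Scf-GFP+ replicate 2 lay within the range of whole marrow and the other two above it. The difference of 0.38 ± 0.24 did not pass (limma adjusted p = 0.303) and its 95% interval ran from -0.20 to 0.95. It was 0.63 without Scf-GFP+ replicate 2, where the limma adjusted p of 0.0414 passed but the 2-fold minimum did not, 0.17 without replicate 3 and 0.79 with a term for arrays with high Xist.

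The receptors differed from each other in the same way. Igf2r measured 9.40, 9.08 and 9.42 in Scf-GFP+ cells and 8.11, 8.20 and 8.25 in whole marrow. The groups did not overlap, and the smallest gap between them was 0.83. The difference was 1.11 ± 0.13, or 2.17-fold, with a limma adjusted p of 0.000993. Its 95% interval of 0.81 to 1.42 reaches below the 2-fold minimum of the call. Igf1r, the signalling receptor, measured 8.20, 8.08 and 8.05 in Scf-GFP+ cells and 7.80, 7.89 and 8.49 in whole marrow. All Scf-GFP+ values lay inside the range of whole marrow, whose replicate 3 was highest. The difference was 0.05 ± 0.20 with a limma adjusted p of 0.866 and a 95% interval of -0.42 to 0.52. Its sign changed between settings.

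Igf2r overlaps an antisense RNA, Airn, which is transcribed from the paternal allele from within Igf2r. Airn was chosen for its place after its values were seen. It measured 9.02, 8.94 and 8.59 in Scf-GFP+ cells and 6.14, 6.12 and 6.00 in whole marrow. Its difference of 2.76 ± 0.14 was called higher, with a limma adjusted p of 2.38e-05. Sense and antisense RNA are given here by the row annotated to each, and whether signal crosses between the rows was not tested. The antisense RNA of Igf1, Igf1os, measured 3.95, 4.88 and 4.93 in Scf-GFP+ cells and 3.81 to 4.11 in whole marrow and was not called (0.62 ± 0.27, limma adjusted p = 0.15). Igf2 and Igf2r are also imprinted genes, expressed in most mouse tissues from the paternal and the maternal allele, respectively, and these arrays do not tell the alleles apart.

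Of the 6 binding proteins, 4 were called higher, led by Igfbp5, which binds to bone matrix. Igfbp5 measured 12.73, 12.83 and 12.74 in Scf-GFP+ cells and 6.12, 5.98 and 5.95 in whole marrow. Both groups were tight, and 6.61 separated them at their closest. The Scf-GFP+ values lay near the top of the scale, as the array maxima were 13.30 to 13.41. Those of whole marrow lay below the lowest array median, 6.564. The difference of 6.75 ± 0.10, or 108-fold, had a limma adjusted p of 2.01e-06. Igfbp2, its neighbour on chromosome 1, measured 6.64, 6.21 and 6.23 in Scf-GFP+ cells and 6.57, 6.19 and 6.55 in whole marrow. These ranges overlapped almost wholly. Its difference was -0.08 ± 0.17, with a limma adjusted p of 0.784 and a 95% interval of -0.49 to 0.34.

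Igfbp7, a secreted protein with weak affinity for IGFs, measured 12.24, 12.44 and 12.56 in Scf-GFP+ cells and 7.39, 7.08 and 7.48 in whole marrow. The nearest arrays of the groups were 4.76 apart. The difference was 5.10 ± 0.15, or 34.2-fold (limma adjusted p = 3.33e-06). Igfbp4, an inhibitory binding protein that the protease of Pappa cuts when IGF is bound, measured 11.04, 10.96 and 11.83 in Scf-GFP+ cells and 7.32, 7.48 and 7.597 in whole marrow. Replicate 3 stood above the other Scf-GFP+ arrays. The difference was 3.81 ± 0.24, or 14.03-fold (limma adjusted p = 6.82e-05).

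Igfbp3, the main carrier of IGF in blood, had the widest spread of the family. It stood at 9.22, 10.29 and 10.81 on Scf-GFP+ arrays 1, 2 and 3 and at 7.14, 6.77 and 6.65 in whole marrow. Replicate 1, the array with high neutrophil markers, was lowest, and still lay 2.08 above the nearest whole marrow array. The difference was 3.26 ± 0.39, or 9.56-fold (limma adjusted p = 0.00118), and 3.70 without replicate 1. The part of the neutrophil signal in this spread was not tested. Igfbp1, the neighbour of Igfbp3 on chromosome 11 with no annotated gene between them, measured 5.57 to 5.64 in Scf-GFP+ cells and 5.53 to 5.65 in whole marrow, and was not called (limma adjusted p = 0.997). The pair thus resembled Igfbp5 and Igfbp2 in that 1 gene of each was called.

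Igfbp6, which binds IGF2 in preference to IGF1, measured 6.67, 6.40 and 6.52 in Scf-GFP+ cells and 6.55, 7.25 and 6.66 in whole marrow. Replicate 2 of whole marrow was the highest, and the groups overlapped. The difference was -0.29 ± 0.20 (limma adjusted p = 0.347), with a 95% interval of -0.77 to 0.19.

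**Figure D2:**
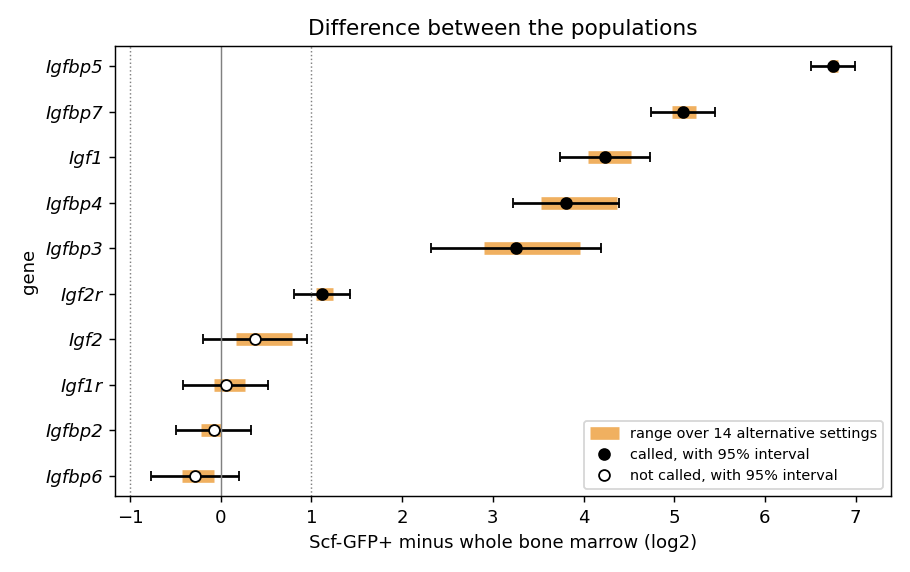
Difference in log2 value of the 10 genes, Scf-GFP+ less whole marrow, with limma's 95% interval, filled circles for called genes, dotted lines at 2-fold and an orange bar for the range over 14 alternative settings. Igfbp5 stands apart from the next, Igfbp7, while the intervals of Igf1, Igfbp4 and Igfbp3 overlap.

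Ordered by size, the difference was 6.75 for Igfbp5 (95% interval 6.50 to 6.997), 5.10 for Igfbp7 (4.74 to 5.45), 4.23 for Igf1 (3.74 to 4.73), 3.81 for Igfbp4 (3.23 to 4.39), 3.26 for Igfbp3 (2.32 to 4.195) and 1.11 for Igf2r (0.81 to 1.42). Of neighbours in this order, the intervals of Igf1 and Igfbp4 and those of Igfbp4 and Igfbp3 overlap, and the upper bound of Igf1 nearly reaches the lower bound of Igfbp7. Probe sets respond unequally, so the order is that of these arrays.

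The members varied among the Scf-GFP+ arrays to different degrees. Their standard deviation (SD) over the 3 Scf-GFP+ arrays ran from 0.059 for Igfbp5 to 0.809 for Igfbp3, beside a median of 0.165 over all genes, and 6 of 10 lay above that median. In whole marrow it ran from 0.072 for Igf2r to 0.381 for Igfbp6. Of the 6 called members, 5 had their highest Scf-GFP+ value in replicate 3, Igf2r only narrowly (9.42 against 9.40 in replicate 1). Replicate 3 was the Scf-GFP+ array with low Xist and with the lowest endothelial, mural and adipocyte marker sums. Its chondrocyte marker sum was the highest of the Scf-GFP+ arrays, at 9.95 against 9.30 and 9.34. Among all 1796 genes called higher, 36.8% had their highest Scf-GFP+ value in replicate 3. A term for Xist sets replicate 3 alone against whole marrow, with its spread assumed to be that of the other arrays. Since 5 of the 6 were already highest on that array, their calls in this fit show nothing about sex. The differences were then 6.72 for Igfbp5, 5.24 for Igfbp7, 4.53 for Igf1, 4.37 for Igfbp4, 3.96 for Igfbp3 and 1.24 for Igf2r. The part of sex or of other cell types in these differences was not tested.

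**Figure D3:**
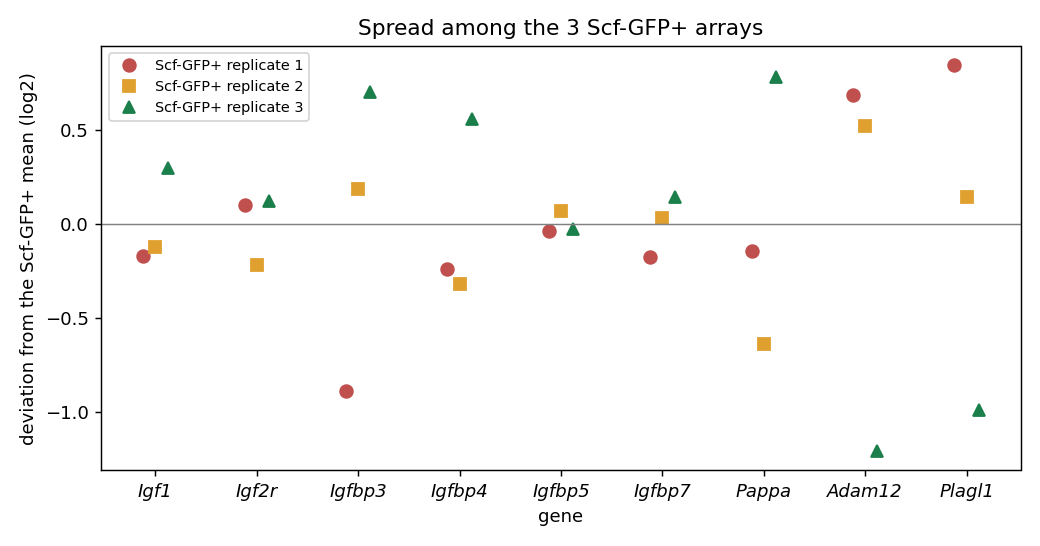
Deviation of each Scf-GFP+ array from the Scf-GFP+ mean (log2) for the 6 called members and for Pappa, Adam12 and Plagl1. Replicate 3 is highest for Igf1, Igf2r, Igfbp3, Igfbp4, Igfbp7 and Pappa and lowest for Adam12 and Plagl1.

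The genes whose profile over the 6 arrays lay nearest to a member's were found from the Euclidean distance between profiles, each centred on its own mean. For Igfbp5 these were Gdpd2 at a distance of 0.195, Mme at 0.251, Chrdl1 at 0.338, Fgf7 at 0.466 and Efemp1 at 0.470. For Igf1 they were Cpq at 0.258, Cnnm1 at 0.324, Hpgd at 0.383, Vegfc at 0.413 and Gnai1 at 0.420. With 2 groups of 3 arrays this likeness mostly reflects a similar difference between the populations. The differences of these genes were 6.52 to 6.82 for the first set and 4.05 to 4.41 for the second.

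Around the members, 64 further genes of the IGF axis were listed by role, and 57 of them were measured. Of these 57, calls were 20 higher and 2 lower, or 38.6% in all beside 16.9% of all genes, and the median difference was 0.41. The 57 include 13 genes listed for a domain like that of the binding proteins, Htra1 and Igfbpl1 also under another role. Of those 13, 8 were called higher, and a shared domain does not place a gene in IGF signalling. The other ligands, receptors and carriers of the family were not called. Insr, the insulin receptor, measured 11.12, 10.80 and 11.06 in Scf-GFP+ cells and 10.20, 10.06 and 10.06 in whole marrow. Its groups did not overlap and its limma adjusted p was 0.00244, but the difference of 0.88 ± 0.13 fell short of 2-fold. Insrr, a receptor related to it, differed by 0.18 ± 0.16 and the insulin gene Ins2 by -0.04 ± 0.11. Igfals, which encodes the acid-labile subunit of the serum IGF complex, differed by 0.32 ± 0.18 and Igfbpl1 by -0.10 ± 0.11.

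Of 7 proteases and protease inhibitors that act on binding proteins, 3 were called higher. Pappa, pregnancy-associated plasma protein A, which cuts the products of Igfbp4 and Igfbp5, measured 10.32, 9.83 and 11.25 in Scf-GFP+ cells and 5.56 to 5.79 in whole marrow. Its difference was 4.81 ± 0.34 (limma adjusted p = 0.000103). Htra1, a secreted serine protease, was higher by 3.61 ± 0.30. Adam12, a metalloprotease, was higher by 2.36 ± 0.48 (limma adjusted p = 0.0118), with 6.83 in Scf-GFP+ replicate 3 against 8.72 and 8.55 in replicates 1 and 2. Without replicate 3 the difference of Adam12 was 2.96, and with the term for Xist, which rests on replicate 3, it was 1.15. Pappa2, a related protease, and the stanniocalcins Stc1 and Stc2, which inhibit these proteases, differed by 0.10 ± 0.11, 0.25 ± 0.25 and 0.02 ± 0.16 and were not called.

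Of 21 measured receptor adaptors and genes of the PI3 kinase pathway, the calls were 6 higher and 2 lower, and the median difference was -0.09. Irs1, the adaptor that couples the IGF1 and insulin receptors to PI3 kinase, measured 10.80, 10.99 and 10.87 in Scf-GFP+ cells and 5.91, 6.28 and 6.38 in whole marrow. Its difference was 4.70 ± 0.15 (limma adjusted p = 4.07e-06). Irs1 had 2 rows, and with their mean in place of the brighter row the difference was 3.76. Irs2, the related adaptor, differed by -0.52 ± 0.11, lower in every Scf-GFP+ array but under 2-fold (limma adjusted p = 0.0134). Irs4 and Shc1 differed by -0.23 ± 0.10 and 0.39 ± 0.21 and did not pass. The PI3 kinase regulatory subunit Pik3r3 was higher by 3.90 ± 0.34 and the imprinted adaptor Grb10, which restrains signalling from these receptors, by 2.57 ± 0.26. The catalytic subunit Pik3cb was lower, at 6.46, 5.96 and 6.17 against 8.59, 8.90 and 9.09, a difference of -2.66 ± 0.19 (limma adjusted p = 9.63e-05). The second lower call, the transcription factor Foxo3, differed by -1.03 ± 0.23 (limma adjusted p = 0.0166). It lost the call without Scf-GFP+ replicate 2 (-0.82, below 2-fold). The call was also lost when the first or the second whole marrow array was left out (adjusted p from limma 0.0529 and 0.0524). Foxo3 lost it with the term for Xist as well, and each of these settings left 1 lower call. Over its alternatives the adjusted p ran from 0.0126 to 0.151.

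Growth hormone signalling had 3 of 6 genes called higher and none lower, with a median difference of 1.16. Ghr, the growth hormone receptor, measured 11.07, 11.10 and 10.59 in Scf-GFP+ cells and 5.24, 5.41 and 5.35 in whole marrow. The difference was 5.59 ± 0.16, or 48.1-fold (limma adjusted p = 3.22e-06). The whole marrow values of Ghr lay low on the scale, near the first quartiles of the arrays, 5.193 to 5.312. Socs2, a feedback inhibitor of the receptor, was higher by 2.43 ± 0.26, and by 3.12 with the mean of its 2 rows. Stat5a, a transcription factor that the receptor activates, was higher by 1.35 ± 0.27 (limma adjusted p = 0.0118), but not with the term for Xist (0.755, adjusted p = 0.083, from 0.00183 to 0.083 over the alternatives). Stat5b differed by 0.98 ± 0.18, just short of 2-fold, and was called when replicate 3 of either population was left out (1.12 without that of Scf-GFP+ cells, 1.05 without that of whole marrow). Cish differed by 0.73 ± 0.32 and was not called, at 0.37 without Scf-GFP+ replicate 3, but was called with the term for Xist (1.46). The kinase Jak2 differed by 0.32 ± 0.17.

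Of 3 measured genes that act on the Igf2 locus or its mRNA, Plagl1, an imprinted zinc finger factor, was called higher. It measured 10.71, 10.01 and 8.88 in Scf-GFP+ cells and 6.63 to 6.82 in whole marrow, a difference of 3.13 ± 0.43 (limma adjusted p = 0.00208). Without replicate 3, the lowest, it was 3.62, and with the term for Xist 2.14. Igf2bp1 and Igf2bp3, which bind Igf2 mRNA, differed by -0.20 ± 0.10 and -0.19 ± 0.12 and were not called. Of 3 measured genes that tag lysosomal enzymes for the receptor of Igf2r, none was called at the 2-fold minimum. Gnptab and Gnptg, subunits of the enzyme that starts the tag, differed by 0.94 ± 0.17 and 0.96 ± 0.22 with limma adjusted p of 0.00719 and 0.0193, and Nagpa, which completes it, by -0.07 ± 0.21. Both subunits passed the 2-fold minimum and were called without Scf-GFP+ replicate 1 (1.03 and 1.15). Gnptab was also called without Scf-GFP+ replicate 3 (1.03), and Gnptg without whole marrow replicate 2 (1.12) and with the term for Xist (1.23).

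Of 13 further genes whose proteins carry a domain like the amino-terminal part of the binding proteins, the calls were 8 higher and 0 lower, and the median difference was 2.36. Htra1 and Igfbpl1 are among them and were counted above. Esm1, a secreted proteoglycan, was higher by 6.45 ± 0.21 (limma adjusted p = 4.19e-06), Kazald1 by 3.33 ± 0.33 and Ccn5, a matricellular protein, by 2.97 ± 0.16. Ccn1 and Ccn2, of the same matricellular family as Ccn5, were also called higher, by 2.712 ± 0.559 and 2.356 ± 0.435. Ccn3, Ccn4 and Ccn6 of that family differed by -0.18 ± 0.09, 0.41 ± 0.17 and -0.58 ± 0.15 and were not called. Ccn6, the last of these, passed on the p-value alone (limma adjusted p = 0.0304).

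**Figure D4:**
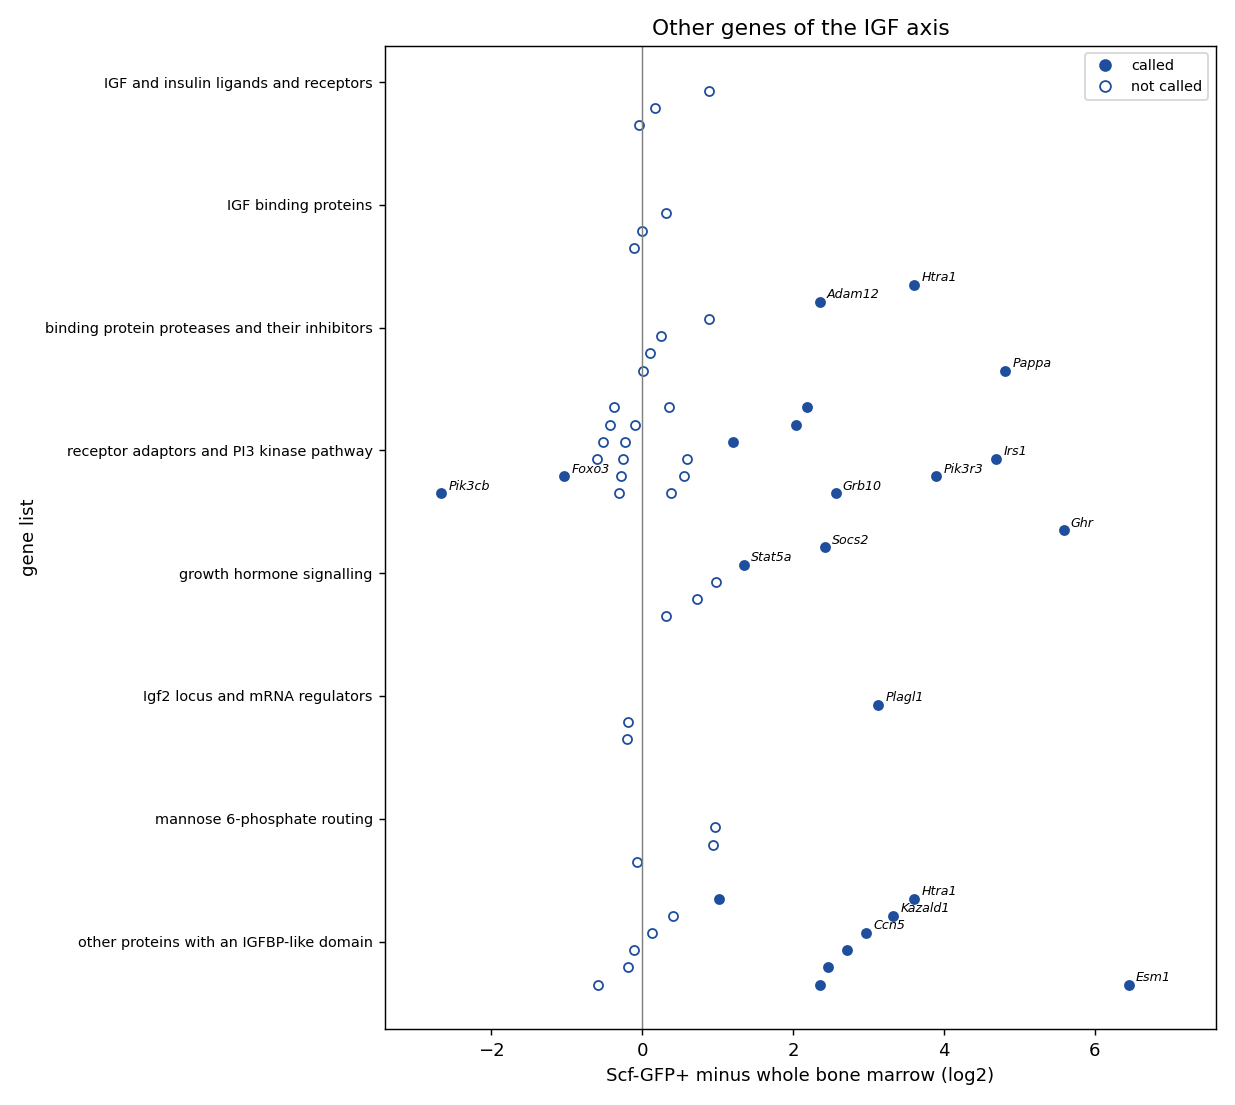
Scf-GFP+ minus whole bone marrow (log2 difference) for the measured genes of each IGF axis list other than the 10 members, 1 circle per gene, filled where called. The 4 largest called genes of each list and both genes called lower are named, and Ghr and Esm1 lie farthest to the right.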

How the data were processed

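RNA from 3 Scf-GFP+ and 3 whole bone marrow samples was amplified, labelled with biotin and hybridised, per the labels' protocols. The authors deposited log2 values for 28940 rows. RMA, affy and limma are named in the submitters' processing notes, without versions, and the annotation build is not given in the sources used here. Array medians lay between 6.564 and 6.631. RMA equalises array distributions, so each value is relative to the other values of its array. The number of arrays limits the precision.

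Rows with exactly 1 symbol (21789) were kept, symbols were updated through Entrez identifiers with RefSeq (GRCm38.p6), and the row with the highest mean stood for each of 19938 genes. Limma 3.58.1 (lmFit, eBayes) in R 4.3.3 compared the groups without covariates, and the fit was tested on simulated data. Alternatives changed the row choice, dim-gene filter, normalization, variance model, array weights, replicate block, Xist term, fold minimum and each array. The members, gene lists and tests were chosen with earlier results of these data known. Named genes were the members, the other ligands, receptors and binding proteins, Kitl, and the nearest profiles. Of each further list, up to 4 called genes with the largest differences and the first 3 not called were named. Foxo3, Airn, Igf1os, Ccn1 and Ccn2 were named besides. Promoter sequences came from RefSeq. No list was tested as a set.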

Additional observations from a re-analysis of the deposited data

How the results depend on the processing

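All 10 members kept their call, or lack of one, under each of the 14 alternatives that refit the table, among them each array left out in turn, and also without a fold minimum. The share of all genes called ran from 14.4% to 23.3%. Without a fold minimum 2758 genes were higher and 2635 lower, and of the IGF axis genes, members included, 33 were higher in place of 26 and 4 lower in place of 2. Axis genes called higher numbered 25 to 29 over the other settings. Axis genes called lower numbered 1 with the term for Xist and 1 to 2 with single arrays left out, as the report gives for Foxo3. The sign of small differences that were not called changed. Igf1r was -0.004 after a second quantile normalization, -0.01 with the Xist term and -0.079 to 0.27 with single arrays left out. With single arrays left out Igfbp2 ran from -0.218 to 0.001, Ins2 from -0.093 to 0.005, Igfbp1 from -0.034 to 0.024, Stc2 from -0.10 to 0.15 and Nagpa from -0.227 to 0.096. Igfbp1 was also 0.054 after quantile normalization and 0.001 with array weights, Stc2 -0.014 with median-centred arrays, and Stc1 and Nagpa -0.129 and 0.244 with the Xist term. The cause was not tested. With the replicate number as a replicate block, 1775 genes were higher and 1563 lower, and no member's call changed. Deviations of same-numbered arrays correlated at -0.063, -0.022 and 0.066, and those of differently numbered arrays at -0.087 to 0.108. With so few arrays per group, these values cannot show whether same-numbered arrays share more than a number.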
